A study of Mus musculus with 6 samples.

Results

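Cycling T cells of mouse skin are described here as cells that carried transcripts of the T cell receptor complex and, at the same time, of 2 genes that dividing cells switch on. A cell was a member when it held at least 1 UMI (a molecule counted by its barcode) of Cd3e, Cd3d or Cd3g, at least 1 of Mki67 and at least 1 of Top2a, none of Csf1r, and less than 20 UMIs of Krt5 plus Krt14 per 10000 UMIs of the cell. The rule selected 840 cells among 8140 T cells of the same gate without the cycling criterion and among 21178 cells in all. Since the members were chosen by their own transcripts, their Mki67, Top2a and Cd3 values are given as a description.

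Transcriptomes of single skin cells were collected from 6 mice of the NINJA strain, a line with an inducible neoantigen, with 2 mice in each of 3 groups. The mice were 6 to 12 weeks old, and the sequenced cells came in all groups from the skin area that had received 4-OH-Tam. The groups are NO_AG, AG and AG_CPI, which stand in the series for mice with the antigen off, with it on, and with it on under CPI, an abbreviation left unexplained in the labels. Per the labels' protocols, transgenic P14 CD8 T cells were recovered from every mouse and checked before sequencing, for which a 10x Genomics 5' kit was used. GEO's entries give no sex, batch or date. Mice are named below by group and replicate number, as NO_AG 1.

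A T cell that meets its antigen leaves rest, copies its DNA in S phase and divides in mitosis, and repeated rounds build a clone. Mki67 encodes the Ki-67 protein that coats mitotic chromosomes, and Top2a encodes the topoisomerase that untangles copied DNA. Both are transcribed mainly from S phase to mitosis, so a cell early in its cycle can lack them. Skin holds several T cell lineages: CD8 T cells kill target cells, conventional CD4 T cells help by secreting cytokines, Foxp3 regulatory T cells restrain the others, and dendritic epidermal T cells are resident gamma-delta cells of the mouse epidermis whose delta chain uses Trdv4.

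Both selection genes lie in the GRCm38 build on minus strands, Mki67 at chr7:135689784-135716361 and Top2a at chr11:98992943-99024189. Their promoters are shown because genes that peak in G2 and mitosis share short promoter motifs, and these genes picked the cells. The windows run from 250 bases before to 50 after the start site in RefSeq (GRCm38.p6), and capitals mark CCAAT and TTTGAA (the CHR motif of mitotic genes) on either strand, so that they also appear as ATTGG and TTCAAA. The Mki67 window is chr7:135716330-135716629 and the Top2a window is chr11:99024140-99024439, both on the minus strand.
Mki67 promoter: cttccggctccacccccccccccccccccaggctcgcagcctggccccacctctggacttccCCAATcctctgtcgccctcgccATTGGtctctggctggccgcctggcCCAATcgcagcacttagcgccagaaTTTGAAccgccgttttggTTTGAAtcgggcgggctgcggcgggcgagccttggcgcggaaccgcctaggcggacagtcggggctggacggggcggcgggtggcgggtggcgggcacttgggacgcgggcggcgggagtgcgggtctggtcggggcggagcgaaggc
Top2a promoter: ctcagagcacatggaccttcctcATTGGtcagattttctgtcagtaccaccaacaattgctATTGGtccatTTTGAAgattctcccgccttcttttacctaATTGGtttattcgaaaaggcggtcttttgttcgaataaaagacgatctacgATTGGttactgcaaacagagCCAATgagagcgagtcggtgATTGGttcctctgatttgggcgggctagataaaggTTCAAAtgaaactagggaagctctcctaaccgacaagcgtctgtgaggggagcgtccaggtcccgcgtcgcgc
The Mki67 window held CCAAT 3 times and TTTGAA 2 times, and the Top2a window held them 6 and 2 times. On either strand, TTTGAA stood in 29 of 38 promoters of a list of G2 and mitosis genes (76.3%, 36 genes), in 3 of 33 promoters of a list of DNA replication genes (9.09%, 30 genes) and in 17.9% of all 32851 promoters of that length. CCAAT stood in 78.9%, 60.6% and 37.4% of the same promoters. The E2F letters TTTCCCGC, of the factor family that drives entry into S phase, were found in 0 of the 38 mitotic promoters, in 15.2% of the replication promoters and in 1.07% of all. A match of letters is a description and not a bound site.

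Of the genes the rule used, Cd3e, Cd3d and Cd3g were detected in 770, 769 and 776 of the 840 members, which describes the rule and does not test the label. The label was checked on a measure outside the rule. A transcript of a receptor constant region (Trac, Trbc1, Trbc2 or Trdc), which the rule had not used, was present in 761 members (90.6%) and in 84.3% of the T cells that were not cycling, which had fewer UMIs per cell. The share was higher in the cycling cells of 5 mice, but in AG_CPI 2 it was 84.0% of cycling against 90.5% of other T cells. As a description of the rule, Top2a was detected in 60.8% to 72.0% of T cells with Mki67 in the 6 mice and in 5.98% to 12.0% of those without it. As a background, 0 of 344 suprabasal keratinocytes, which have left the cycle, held both genes, which allows a share of up to 0.872%. Of these keratinocytes 128 and 126 were from NO_AG and 68 from AG 1, with 1 from AG 2 and 12 and 9 from AG_CPI, so this background is hardly measured in the last 3 libraries. Fibroblasts, taken as cells with Col1a1 and Col3a1 and without Cd3, were a further background. Both genes were held by 2 of 38 (5.26%) and 1 of 22 (4.55%) of them in NO_AG 1 and 2. The count was 0 of 28 and 0 of 15 in AG 1 and 2, and 0 of 1 and 0 of 4 in AG_CPI 1 and 2. Whether those fibroblasts were dividing was not tested.

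A minority of members rested on weak evidence. At the edge of the rule, 82 members held exactly 1 UMI of each cycle gene, while 563 held at least 2 of both. The keratin limit left out 452 cells that passed every other criterion (49 and 186 in NO_AG, 10 and 191 in AG, 8 and 8 in AG_CPI), of which 97 had a Cd8a or Cd8b1 UMI and 105 a Trdv4 UMI. Near that limit, 28 members had 10 to 20 keratin UMIs per 10000 and 23 left-out cells had 20 to 30. The Csf1r criterion left out 34 cells. There were 36 members with 1 Cd3 UMI and no receptor constant transcript, 3 and 5 in NO_AG 1 and 2, 2 and 12 in AG 1 and 2, and 0 and 14 in AG_CPI 1 and 2.

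Of these 36, 30 also lacked every lineage marker, and their leading genes were not T cell genes. Mt1, a metallothionein, was found in 28 of the 30 at a mean of 79.0 UMIs per 10000, against 3.12 in cycling CD8 T cells. Perp, a gene of epithelial adhesion, was found in 27, Krt28, a hair follicle keratin, in 24 and Dcn, a fibroblast proteoglycan, in 19. The data therefore go against the T cell label for these cells, and shares that rest on them are also given with at least 2 Cd3 UMIs required, which leaves out all 51 members with 1 Cd3 UMI, the 36 among them.

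The cells were split into lineages by single transcripts. CD8 T cells had Cd8a or Cd8b1 and neither Cd4 nor Foxp3, regulatory T cells had Foxp3 and no Cd8, and conventional CD4 T cells had Cd4 and neither Foxp3 nor Cd8. Dendritic epidermal T cells had Trdv4 and none of those, cells with conflicting markers were called mixed, and the remainder had no marker. Of the 840 cycling cells, 567 were CD8 T cells, 77 were dendritic epidermal T cells, 45 were conventional CD4 and 22 regulatory T cells, 14 were mixed and 115 had none of the markers. Of those 115, 47 also lacked a receptor constant transcript, against 23 of the 567 CD8 T cells.

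CD8 T cells made up a growing part of the cycling compartment from NO_AG to AG to AG_CPI, while dendritic epidermal T cells made up less of it. CD8 T cells were 16.5% and 43.3% of cycling T cells in the NO_AG mice, 74.3% and 75.6% in the AG mice, and 91.4% and 80.0% in the AG_CPI mice, from 16, 52, 84, 177, 138 and 100 cells. The mice of the 3 groups did not overlap. The mean difference was 45.1 percentage points between AG and NO_AG, 10.7 between AG_CPI and AG, and 55.8 between AG_CPI and NO_AG, and each had an exact permutation p of 0.333 (2-sided), the smallest that 2 against 2 mice can give. With at least 2 Cd3 UMIs required of each cell, the CD8 differences were 47.1, 13.4 and 60.6. The difference between AG_CPI and AG was 5.01 without AG_CPI 1 and 16.4 without AG_CPI 2, and it was 16.1 in cells thinned to 1500 UMIs, 20.4 with either cycle gene and 21.0 without the keratin limit. The T cells that were not cycling had the same order, with CD8 shares of 11.5% and 36.8%, 51.8% and 54.9%, and 92.2% and 82.8%.

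Dendritic epidermal T cells were 36.1% and 25.0% of cycling T cells in NO_AG, 4.42% and 2.99% in AG, and 0 of 151 and 0 of 125 cells in AG_CPI. These groups did not overlap either, with differences of -26.8 percentage points for AG against NO_AG and -3.71 for AG_CPI against AG (exact permutation p of 0.333 for each). With at least 2 Cd3 UMIs the dendritic epidermal share of cycling T cells was 37.6% and 26.3% in NO_AG 1 and 2, 4.55% and 1.85% in AG 1 and 2, and 0 in both AG_CPI mice. The difference of AG_CPI against AG was -5.79 in thinned cells and -1.59 with Krt5 plus Krt14 at 0. The AG_CPI libraries held few cells of this lineage to begin with, 7 and 18, so that a cycling share of up to 16.7% was not detectable in AG_CPI 2. Some cycling cells that the lineage rule counted as CD8 also held a Trdv4 UMI. They were 0 and 1 cells in NO_AG 1 and 2, and 5 and 11 in AG 1 and 2. In AG_CPI 1 and 2 they were 7 and 4, so Trdv4 was not absent from cycling T cells there. Whether their Cd8 or their Trdv4 UMI was a stray transcript was not tested.

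**Figure D1:**
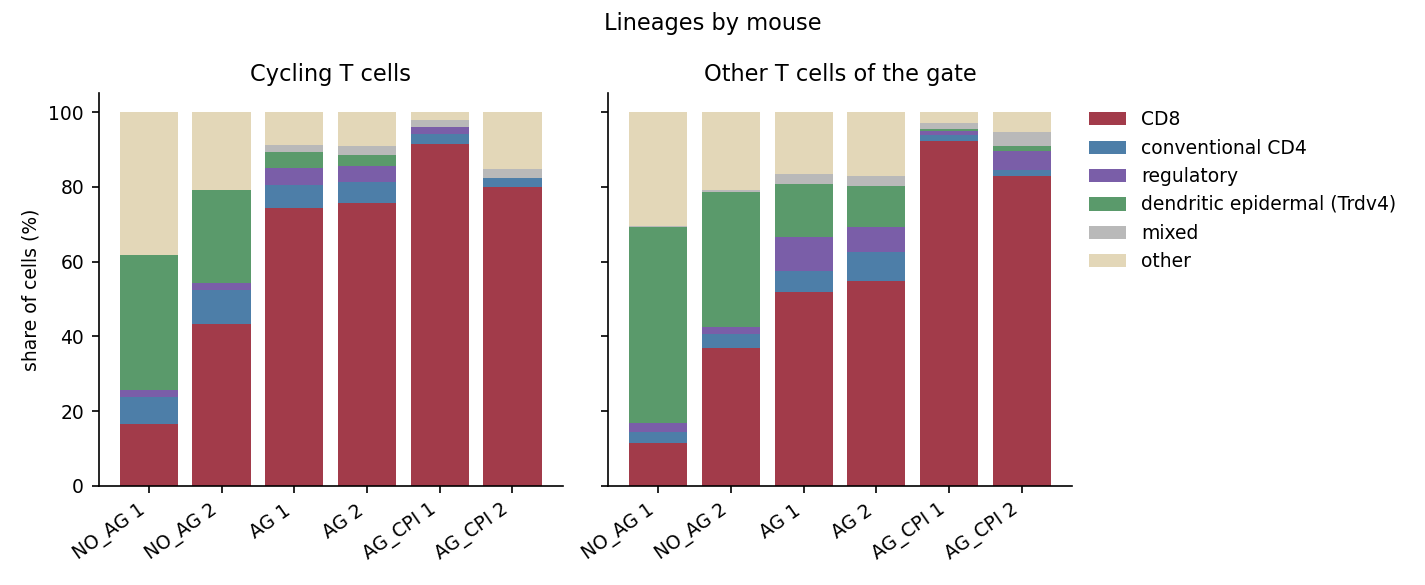
Lineage make-up of the cycling T cells of each mouse, as stacked bars of the percent of cycling T cells on the vertical axis and 1 bar per mouse. CD8 T cells go from 16.5% and 43.3% in NO_AG to 91.4% and 80.0% in AG_CPI, and dendritic epidermal T cells from 36.1% and 25.0% to none under the lineage rule.

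The share of all T cells that cycled did not order the groups. It was 8.87% and 11.3% in the NO_AG mice, 5.97% and 16.8% in the AG mice, and 12.3% and 8.53% in the AG_CPI mice, from 97, 120, 113, 234, 151 and 125 cycling cells. Both the lowest and the highest share were AG mice, and their Wilson 95% intervals, which cover counting error only, were 4.99% to 7.13% and 14.9% to 18.9%. AG 2 was also the highest mouse in keratinocytes without Cd3. There both cycle genes were held by 9.77% and 11.5% of cells in NO_AG 1 and 2, and by 7.96% and 18.5% in AG 1 and 2. In AG_CPI 1 and 2 they were held by 11.3% and 7.87%. The mean ± SD was 10.1% ± 1.70 in NO_AG, 11.4% ± 7.66 in AG and 10.4% ± 2.66 in AG_CPI (SD, n = 2 mice each; exact permutation p = 1 for AG against NO_AG and for AG_CPI against AG). The sign of the AG difference of 1.32 percentage points hung on AG 2, since without that mouse it was -4.10. With at least 2 Cd3 UMIs required of every T cell, the shares were 9.09% and 11.3%, 6.00% and 16.5%, and 12.2% and 7.51%.

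Depth touched the calls, because a deeper cell shows more of its transcripts. Cycling T cells had median totals of 4053 to 5550 UMIs per mouse and the other T cells 2184 to 2601. With every cell thinned to 1500 UMIs, the expected cycling shares were 5.32% and 6.79% in NO_AG 1 and 2, 2.34% and 7.90% in AG 1 and 2, and 7.05% and 4.54% in AG_CPI 1 and 2, and the mean of AG was 0.93 percentage points below that of NO_AG. As a part of all cells of a library, cycling T cells were 1.95% and 2.93% in the NO_AG mice, 3.23% and 5.02% in the AG mice, and 8.70% and 5.66% in the AG_CPI mice. T cells as a whole made up 22% and 26.0%, 54.0% and 29.9%, and 70.8% and 66.4% of the same libraries.

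Within the CD8 lineage, 12.2% and 13.0% of cells cycled in NO_AG 1 and 2, 8.35% and 21.8% in AG 1 and 2, and 12.2% and 8.26% in AG_CPI 1 and 2. The highest mouse was AG 2, AG 1 and AG_CPI 2 were the lowest, and the groups overlapped (exact permutation p = 1 for AG against NO_AG and 0.667 for AG_CPI against AG). Without AG 2 the AG difference from NO_AG turned from 2.45 to -4.26 percentage points and that of AG_CPI from AG turned from -4.84 to 1.87. With cells thinned to 1500 UMIs they were -1.16 and -0.67. So the CD8 part of the cycling compartment differed between groups in the same order as the CD8 part of the other T cells, with no ordered difference in the share of CD8 T cells that cycled.

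Conventional CD4 T cells were few but often cycling. Their cycling shares were 19.4% and 23.9% in the NO_AG mice, 6.36% and 12.7% in the AG mice, and 19.0% and 11.1% in the AG_CPI mice, from 7, 11, 7, 13, 4 and 3 cycling cells. Foxp3 regulatory T cells cycled at 7.41% and 9.52% in NO_AG, 3.05% and 11.4% in AG, with 3 of 15 in AG_CPI 1 and 0 of 65 in AG_CPI 2, which allows up to 4.62%. The regulatory counts were 2, 2, 5, 10, 3 and 0 cycling cells. In dendritic epidermal T cells, 6.29% and 8.06% cycled in NO_AG and 1.92% and 5.22% in AG.

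Lineages of the same mouse were compared with each other in 4 pairs, with an exact sign-flip permutation test over mice that had at least 20 cells of both lineages and with Benjamini-Hochberg adjustment over the 4. The cycling share of CD8 T cells exceeded that of dendritic epidermal T cells in 4 of 4 mice, by 4.94 to 16.5 percentage points with a mean of 8.46 (exact permutation p = 0.125, adjusted 0.25, the smallest unadjusted p that 4 mice allow). The mean was 3.51 in cells thinned to 1500 UMIs and 5.52 without the keratin limit. Regulatory T cells had a lower share than conventional CD4 T cells in 5 of 5 mice, by a mean of -8.45 with a range of -14.4 to -1.38 (exact permutation p = 0.0625, adjusted 0.25). AG_CPI 1, left out with 15 and 21 cells, went the other way at 0.95. CD8 T cells exceeded conventional CD4 T cells in 2 of 6 mice, both of AG, with a mean difference of -2.81 and a range of -10.9 to 9.03 (exact permutation p = 0.406, adjusted 0.50). That mean was -1.19 without NO_AG 2, -5.17 without AG 2, -4.33 with either cycle gene, -0.38 with Krt5 plus Krt14 at 0 and 0.19 with at least 2 UMIs of both cycle genes. No pair passed an adjusted p of 0.05 at these numbers of mice.

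**Figure D2:**
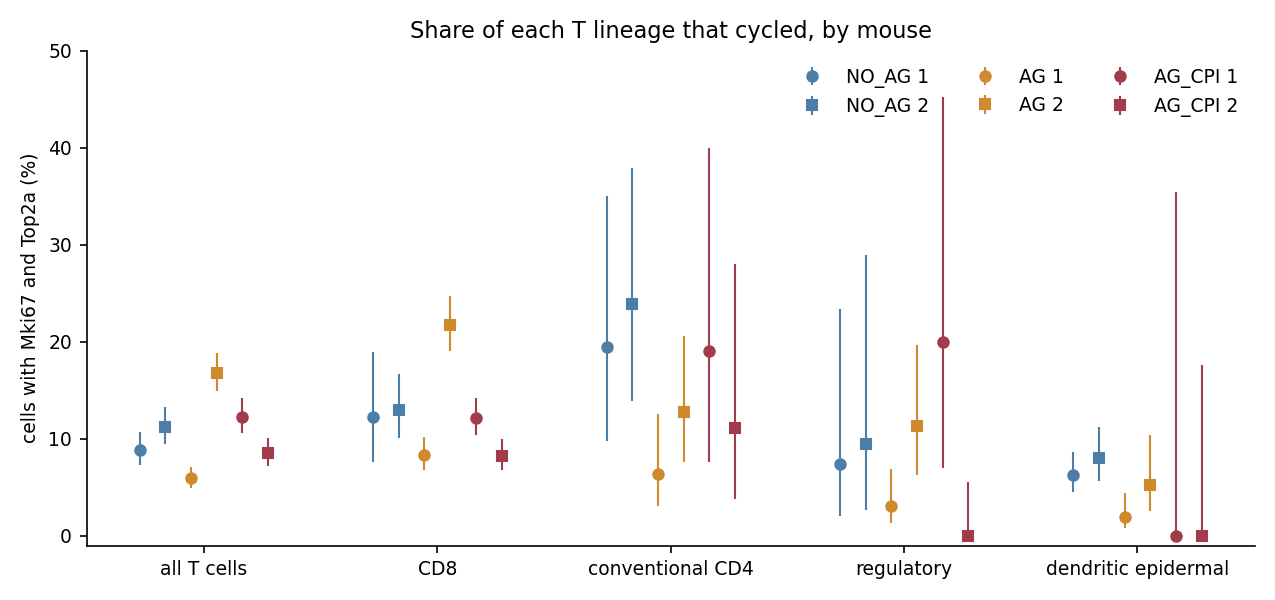
Percent of cells that cycled in each T cell lineage (vertical axis) for each mouse, coloured by group, with Wilson 95% intervals that cover counting error. For CD8 T cells, AG 2 is highest at 21.8%, and AG 1 at 8.35% and AG_CPI 2 at 8.26% are lowest.

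Cells with none of the lineage markers need the reserve given above. They cycled at 10.9% and 11.3% in NO_AG 1 and 2, 3.28% and 9.59% in AG 1 and 2, and 8.57% and 21.3% in AG_CPI 1 and 2. Of the 19 such cycling cells in AG_CPI 2, 14 lacked a receptor constant transcript. With at least 2 Cd3 UMIs required, 12.1% and 10.3% were cycling in the NO_AG mice, 3.1% and 6.83% in the AG mice, and 9.38% and 5.26% in the AG_CPI mice, the last from 3 cycling cells. Single transcripts were also found in other cells: keratinocytes without Cd3 held a Cd8a or Cd8b1 UMI in 0.38% and 0.47% of cells in the NO_AG mice, 1.91% and 11.7% in the AG mice, and 7.04% and 9.06% in the AG_CPI mice, at median depths of 2231 to 6921 UMIs. The same keratinocytes held Cd4 in at most 0.89% and Trdv4 in 0% to 2.74%.

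The receptor of the cycling CD8 T cells was read next. Trbv13-3 (chr6:41130147-41130585, plus strand) is the beta chain segment of the P14 receptor, though a host T cell can use it too. The start of its coding sequence is shown because a near copy, Trbv13-2, could take or lend reads: the GENCODE vM21 transcripts of 340 bases each shared 308 bases (90.6%), with a longest identical run of 50. Capitals mark the 16 bases within the first 150 at which the aligned Trbv13-2 transcript differs.
Trbv13-3, bases 1 to 150: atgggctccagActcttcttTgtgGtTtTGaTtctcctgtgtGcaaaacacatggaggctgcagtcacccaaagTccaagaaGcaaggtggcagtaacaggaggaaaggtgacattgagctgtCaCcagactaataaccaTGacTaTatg
A read of the shared stretches alone could belong to either, so some Trbv13-3 calls are uncertain. In keratinocytes without Cd3, Trbv13-3 was found in 0% and 0.17% of cells in NO_AG 1 and 2, 0.21% and 3.04% in AG 1 and 2, and 0.70% and 2.76% in AG_CPI 1 and 2.

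Cells with Trbv13-3 were most of the cycling CD8 T cells in both antigen groups and almost absent from them in NO_AG. They were 0 of 16 and 1 of 52 cycling CD8 T cells in the NO_AG mice, 73.8% and 70.1% in the AG mice, and 63.8% and 54.0% in the AG_CPI mice. Among CD8 T cells that were not cycling, the shares were 1.74% and 3.45%, 45.3% and 53.9%, and 56.9% and 68.5%. Trbv13-3 cells were therefore a larger part of the cycling than of the other CD8 T cells in 3 of the 4 antigen mice, and a smaller part in AG_CPI 2. These shares also count cells with no detected segment. Among cells with a segment, each given its leading one, Trbv13-3 led in 75.6% of cycling against 51.9% of other cells in AG 1. It led in 82.5% against 70.1% in AG 2, 80.4% against 78.1% in AG_CPI 1 and 52.4% against 79.2% in AG_CPI 2.

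Read as shares that cycled, 62 of 480 Trbv13-3 cells (12.9%) cycled in AG 1 and 124 of 467 (26.6%) in AG 2, against 88 of 654 (13.5%) in AG_CPI 1 and 54 of 815 (6.63%) in AG_CPI 2. CD8 T cells with another Trbv segment cycled at 12.4% and 15.0% in NO_AG 1 and 2, 4.24% and 13.9% in AG 1 and 2, and 9.93% and 16.0% in AG_CPI 1 and 2. Both AG mice thus had more cycling among Trbv13-3 cells than among cells with other segments, as had AG_CPI 1, and AG_CPI 2 had less. The mean difference over these 4 mice was 3.89 percentage points with a range of -9.33 to 12.7 (exact permutation p = 0.50, adjusted 0.50), so it did not exceed the spread between mice. It was 2.29 without AG 1, 0.96 without AG 2, 8.29 without AG_CPI 2, 6.31 with either cycle gene and 1.41 with cells thinned to 1500 UMIs. Trbv13-3 cells were deeper in AG, with medians of 3473 and 3346 UMIs against 2488 and 2196 for cells with another segment.

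The other segments of cycling CD8 T cells were spread out. In NO_AG 2, 47 cycling CD8 T cells with a segment used 15 of them, led by Trbv15 and Trbv16 with 6 cells each, and in NO_AG 1, 11 cells used 6, led by Trbv16 with 4. Over cells with a segment, each given its leading one, Trbv13-3 led with 59 of 78 cells in AG 1, 118 of 143 in AG 2, 82 of 102 in AG_CPI 1 and 44 of 84 in AG_CPI 2. A UMI of Trdc, the delta chain constant gene, was found in 0 and 1 of the cycling CD8 T cells of NO_AG, in 36.9% and 37.9% in AG, and in 40.6% and 28.0% in AG_CPI. It was found in 5.22% and 4.02%, 21.9% and 27.2%, and 34.1% and 32.6% of the CD8 T cells that were not cycling.

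Cycling CD8 T cells carried a full programme of replication and mitosis genes, which the selection by Mki67 and Top2a fixes in part and which is given without a test. All 45 listed G2 and mitosis genes were higher in cycling than in other CD8 T cells in 6 of 6 mice, with a median log2 ratio of 1.82 on the scale of UMIs per 10000 plus 0.5. Of 37 listed replication genes, 35 were higher in every mouse, with a median of 1.08. Over all 6239 genes with enough UMIs in these cells, 18.2% were higher and 9.42% lower in 6 of 6 mice, with a median of 0.02.

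Ube2c, which tags mitotic proteins for destruction, stood at 8.98 and 11 UMIs per 10000 in cycling CD8 T cells of NO_AG, 8.54 and 6.97 in the AG mice and 9.21 and 7.23 in the AG_CPI mice, against 0.15 to 0.90 in the others. Rrm2, a subunit of the enzyme that makes DNA building blocks, stood at 4.80 and 8.20, 5.94 and 3.41, and 4.30 and 3.93, against 0.12 to 0.41. Hmgb2, a chromatin protein, was abundant at 34.8 and 35.9, 29.2 and 31.7, and 40.2 and 33.1, against 3.62 to 7.50. In all 3 genes every cycling value lay above every other one. The median log2 ratio was 3.49 for Ube2c, 2.88 for Rrm2 and 2.75 for Hmgb2, and it was 3.48 for Pclaf, a partner of the replication clamp, 3.08 for the survivin gene Birc5, 2.67 for cyclin A gene Ccna2 and 2.41 for the mitotic kinase gene Cdk1.

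The summed level of the listed replication genes in cycling CD8 T cells was 64.4 and 77.9 UMIs per 10000 in the NO_AG mice, 59.9 and 57.0 in the AG mice, and 57.1 and 54.0 in the AG_CPI mice. That of the G2 and mitosis genes was 152 and 159, 125 and 120, and 153 and 136. The mitotic sum was lower in both AG mice than in the other 4, and the ratio of mitotic to replication sums was 2.37 and 2.04 in NO_AG 1 and 2, 2.09 and 2.10 in AG 1 and 2, and 2.69 and 2.51 in AG_CPI 1 and 2. Over all cycling T cells, AG 1 had a mitotic sum of 134, above the 128 of AG_CPI 2. In cycling CD8 T cells with another Trbv segment it was 118 and 136 in AG against 118 and 121 in AG_CPI. In those with Trbv13-3 it was 128 and 128 against 162 and 131. In the other CD8 T cells the replication sum was 8.23 to 15.8 and the mitotic sum 10.5 to 20.8. Ccnb1, the cyclin of mitotic entry, was detected in 18.8% and 30.8% of cycling CD8 T cells of NO_AG, 28.6% and 33.9% of AG, and 30.4% and 29.0% of AG_CPI. It was thus not detected in most of them at this depth, which does not show that they lacked it.

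Genes that hold the cycle back did not behave as 1 group. Of 20 listed genes of cycle entry and its brakes, 7 were higher and 4 lower in 6 of 6 mice, with a median log2 ratio of -0.03. The inhibitors of the INK4 family Cdkn2c and Cdkn2d were higher in cycling CD8 T cells, by 1.09 and 1.07. Btg1, an antiproliferative gene of resting lymphocytes, was lower in all mice, at 3.95 and 2.96 UMIs per 10000 in the NO_AG mice, 4.02 and 3.27 in the AG mice, and 5.55 and 4.94 in the AG_CPI mice, against 8.62 and 6.72, 8.53 and 4.88, and 8.41 and 8.44 in the others. The quiescence genes Cdkn1b and Foxo1 were lower as well, by -0.27 and -0.26, as was the cyclin D gene Ccnd2 by -0.71.

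Effector and memory genes were lower in cycling than in other CD8 T cells, or did not differ in 1 direction in all mice. None of the 22 listed cytotoxic genes was higher in 6 of 6 mice and 6 were lower, with a median log2 ratio of -0.17. Ccl5, a chemokine stored by effector cells, was 6.54 and 21.7 UMIs per 10000 in cycling cells of NO_AG, 49.7 and 87.3 in the AG mice and 31.5 and 45.8 in the AG_CPI mice, against 38.8 and 35.8, 129 and 151, and 94.2 and 109 in the others. Il7r, the receptor for the survival cytokine of resting T cells, was 0.70 and 1.13, 0.64 and 0.65, and 1.06 and 0.95, against 1.78 and 1.65, 1.64 and 1.28, and 2.00 and 2.66. Every mouse had the lower value in its cycling cells for both genes. Of 16 measured residency genes, 4 were lower in 6 of 6 mice, where 9.42% of all genes were, among them Cxcr6, Itgae and Itga1 by -0.67, -0.60 and -0.50. Of 15 listed memory genes 5 were lower, among them Tcf7, the transcription factor of self-renewing memory cells, by -0.47.

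Of 20 listed genes of growth and metabolism, 8 were higher in 6 of 6 mice and none lower, with a median of 0.17, where 18.2% of all genes were higher. The nuclear transport gene Ran stood at 8.55 to 10.7 UMIs per 10000 in cycling CD8 T cells against 3.05 to 4.49 in the others. Smaller median log2 ratios were found for Mthfd2, an enzyme of folate metabolism (0.62), and for the glycolytic genes Tpi1 (0.46), Gapdh (0.33) and Pkm (0.29). The cycling cells also had the larger UMI totals given above, whose part in the ratios was not tested.

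**Figure D3:**
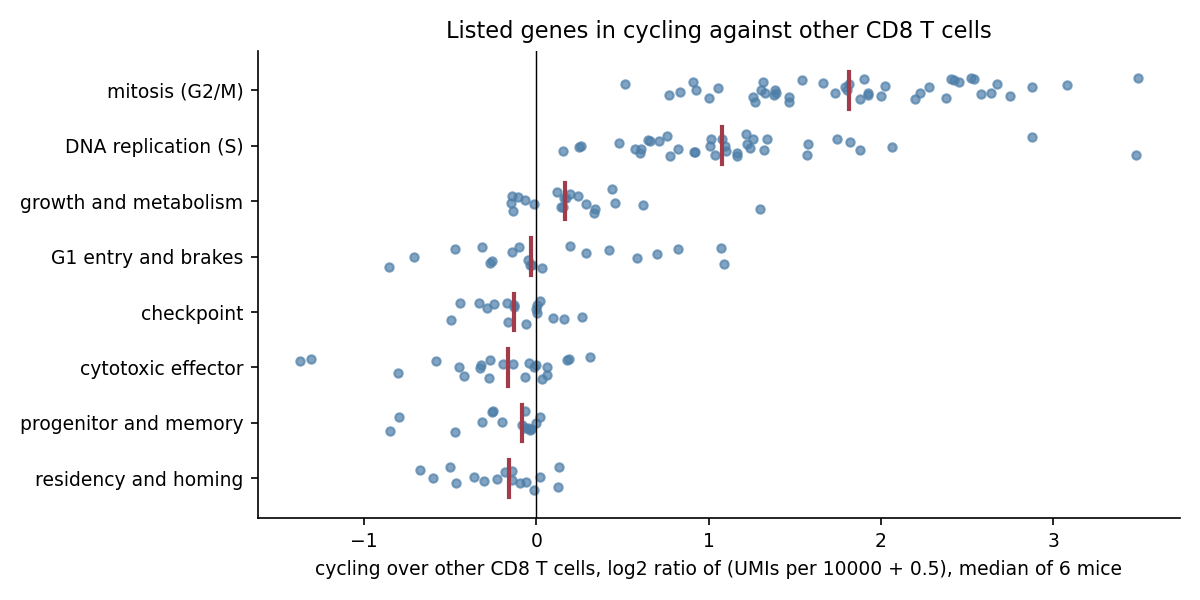
Log2 ratio of cycling to other CD8 T cells for each gene of the lists, as the median of 6 mice on the horizontal axis in log2 of (UMIs per 10000 plus 0.5), with 1 row per list and a red line at its median. The mitosis list has a median of 1.82 and the replication list 1.08, and the medians of the cytotoxic, checkpoint and residency lists lie below 0.

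Cycling CD8 T cells were then compared between groups, with 1 mean per mouse and gene and limma-trend across 6239 genes in all 6 mice, at a Benjamini-Hochberg adjusted p of 0.05. Log2 fold changes are of UMIs per 10000 plus 0.5, which understates the change of low genes. The cycling CD8 T cells of AG expressed far more chemokine, cytotoxic and checkpoint receptor transcripts than those of NO_AG, and less of a small set that includes the cycle inhibitor gene Cdkn1a. In AG against NO_AG, 35 genes rose (0.561% of those tested) and 6 fell (0.0962%), together 41 (0.657%). NO_AG contributed 16 and 52 such cells, fewer than any other mouse. The count was 92 without NO_AG 1, 1220 without NO_AG 2, 23 without AG 1, 15 without AG 2 and 27 without AG_CPI 1, a lone mouse being assumed to vary like the other groups.

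Of 16 tested checkpoint and exhaustion genes, 10 rose and none fell, with a median log2 fold change of 1.10 against 0.03 over all genes. Lag3 (chr6:124904361-124911705, minus strand), a receptor that inhibits T cells on meeting class II molecules, was 0.04 and 0.09 UMIs per 10000 in NO_AG 1 and 2, 6.20 and 3.60 in AG 1 and 2, and 2.61 and 3.04 in AG_CPI 1 and 2. Its AG mice lay above all others. Lag3 rose by a log2 fold change of 3.27 (SE 0.23, limma adjusted p = 3.72e-06) in AG against NO_AG.

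Pdcd1, which encodes PD-1, was 0.17 and 0.10 in the NO_AG mice, 2.38 and 1.95 in the AG mice, and 1.31 and 1.70 in the AG_CPI mice. Havcr2, which encodes TIM-3, was 0.21 and 0.11, 1.64 and 2.12, and 1.88 and 2.57. Tigit, a further inhibitory receptor, was 0.08 and 0.04, 2.56 and 2.72, and 1.02 and 1.69. For these 3 receptors neither NO_AG mouse reached any mouse of the antigen groups, and for Pdcd1 and Tigit both AG mice also lay above both AG_CPI mice. Their log2 fold changes in AG against NO_AG were 2.12 (SE 0.21), 1.91 (SE 0.22) and 2.54 (SE 0.22), with limma adjusted p-values of 9.17e-05, 4.98e-04 and 3.39e-05, and the Havcr2 call was lost without AG 2. The costimulatory receptor gene Tnfrsf9 rose by 2.52 (limma adjusted p = 1.79e-04), and Tox, a transcription factor of exhausted cells, by 1.13. Ctla4 and Entpd1 had 0 UMIs in the 68 cycling CD8 T cells of NO_AG and were at least 5.75-fold and at least 5.47-fold higher in AG, against the limit of 0.0912 UMIs per 10000 that 3 counts over that group set.

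Of 20 tested cytotoxic genes, 9 rose and none fell in AG, with a median of 0.84. Ccl4 (chr11:83662584-83664683, plus strand), a chemokine that activated T cells release, was 2.21 and 1.18 UMIs per 10000 in NO_AG 1 and 2, 30.4 and 32.6 in AG 1 and 2, and 14.7 and 10.0 in AG_CPI 1 and 2. Its neighbour Ccl3 was 0.78 and 0.10, 9.26 and 8.59, and 2.59 and 1.69. The AG mice were the highest for both chemokines. Ccl4 rose by 4.02 (SE 0.25, limma adjusted p = 1.45e-06) and Ccl3 by 3.51 (SE 0.30, limma adjusted p = 2.37e-05).

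Perforin gene Prf1 was 0 and 0.14 in the NO_AG mice, 2.24 and 1.85 in the AG mice, and 1.14 and 0.93 in the AG_CPI mice, and rose by 2.22 (limma adjusted p = 9.17e-05). Granzyme B gene Gzmb was 1.94 and 4.18, 15.2 and 13.8, and 17.8 and 9.13, and rose by 2.26 (limma adjusted p = 0.00332). Both effector genes separated NO_AG from the other mice. Gzma (chr13:113093825-113100981, minus strand), which encodes granzyme A, was 0 and 4.60 in NO_AG 1 and 2, 22.8 and 19.2 in AG 1 and 2, and 84.1 and 79.6 in AG_CPI 1 and 2, with both AG_CPI mice above both AG mice. It rose by 3.82 in AG against NO_AG (limma adjusted p = 0.0179) and by 5.73 in AG_CPI against NO_AG (SE 0.67, limma adjusted p = 6.55e-04), the second of which was lost without AG 2 and with no filter on low values. Its difference of 1.90 between AG_CPI and AG did not pass (limma adjusted p = 1).

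Ifitm1 (chr7:140967221-140969825, plus strand), an interferon-inducible membrane protein gene, was called in every comparison of cycling CD8 T cells. It was 0 and 0 UMIs per 10000 in the NO_AG mice, 4.78 and 5.38 in the AG mice, and 18.1 and 23.2 in the AG_CPI mice, so that the 3 groups did not overlap. AG and AG_CPI did overlap in the cycling CD8 T cells with a Trbv segment other than Trbv13-3, where Ifitm1 was 0 and 0 in NO_AG 1 and 2, 1.03 and 9.59 in AG 1 and 2, and 7.89 and 11.2 in AG_CPI 1 and 2, with AG 2 above AG_CPI 1. With 0 UMIs in the 68 NO_AG cells, it was at least 55.7-fold higher in AG and at least 226-fold higher in AG_CPI. The fitted log2 fold changes were 3.53 for AG against NO_AG (SE 0.20, limma adjusted p = 1.32e-06) and 1.87 for AG_CPI against AG (SE 0.20, limma adjusted p = 0.00281). The call between AG_CPI and AG was lost without AG 1, AG 2 or AG_CPI 2 and with no filter on low values. Of 19 tested interferon response genes, in a list without Ifitm1, none passed in AG against NO_AG, with a median of 0.31.

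The genes that fell in AG were few. Cdkn1a (chr17:29090976-29100727, plus strand), which encodes the cycle inhibitor p21 and is a target of p53, was 4.57 and 1.98 UMIs per 10000 in cycling CD8 T cells of NO_AG, 0.60 and 0.57 in the AG mice and 0.57 and 0.54 in the AG_CPI mice. No other gene of the replication, mitosis and entry lists passed in AG against NO_AG, and Cdkn1a fell with a log2 fold change of -1.61 (SE 0.28, limma adjusted p = 0.0156). The call was lost without AG 1, without AG 2 and with no filter on low values. In the CD8 T cells that were not cycling, the values were 1.18 and 0.97, 0.59 and 0.57, and 0.31 and 0.42.

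Trat1 (chr16:48730774-48772021, minus strand), an adaptor bound to the T cell receptor, was 2.05 and 2.84 in NO_AG 1 and 2, 0.75 and 0.32 in AG 1 and 2, and 0.02 and 0.02 in AG_CPI 1 and 2, and fell with a log2 fold change of -1.44 in AG (SE 0.24, limma adjusted p = 0.0151) and of -2.42 in AG_CPI against NO_AG. Rgcc, a regulator of the cycle, was 4.50 and 5.17, 2.10 and 0.54, and 1.05 and 0.91 (log2 fold change -1.60 in AG against NO_AG, limma adjusted p = 0.0394). Both genes were highest in the 2 NO_AG mice, but the Trat1 call in AG was lost without AG 1 or AG 2 and the Rgcc call without AG 2, AG_CPI 1 or AG_CPI 2. Ass1, an enzyme of arginine synthesis, and Tesc, a calcium-binding protein gene, had log2 fold changes of -1.12 and -1.04 at limma adjusted p-values of 0.0388 and 0.0499, and both calls were lost without any 1 of the antigen mice. With no filter on low values, and with a pseudocount of 0.1, the calls of Trat1, Rgcc, Ass1 and Tesc in AG were all lost, and Rgcc and Tesc also lost theirs with summed UMIs and with a receptor constant transcript required.

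The comparison of AG_CPI with NO_AG, which shares the NO_AG mice with the one above, called 46 genes (0.737%), 35 higher (0.561%) and 11 lower (0.176%). It called 98 without NO_AG 1, 1104 without NO_AG 2, 18 without AG 1, 17 without AG 2, 12 without AG_CPI 1 and 21 without AG_CPI 2. Checkpoint genes counted 7 higher of 16 and cytotoxic genes 6 higher of 20, with none lower. Of 12 tested memory genes, 2 fell (Tcf7 and Trat1) and 1 rose (Satb1), with 6 positive and a median of 0.01. Lag3, Pdcd1, Havcr2, Tigit and Tnfrsf9 had log2 fold changes of 2.57, 1.68, 2.07, 1.72 and 2.05. The Tigit call was lost without AG_CPI 2 and with voom, and the Tnfrsf9 call without AG_CPI 1 and with no filter on low values. Tcf7, the memory transcription factor, was 0.78 and 0.91 in the NO_AG mice, 0.35 and 0.15 in the AG mice, and 0.03 and 0.13 in the AG_CPI mice, and fell with a log2 fold change of -1.16 (limma adjusted p = 0.0248), a call lost without any 1 of the antigen mice, with no filter and without the Trbv13-3 cells. Cd7, a membrane protein gene of T and innate lymphocytes, was 5.55 and 8.90, 5.0 and 3.40, and 1.33 and 2.37 (log2 fold change -1.64), a call lost without AG 1, AG 2 or AG_CPI 1 and with no filter.

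Between AG_CPI and AG, 1 gene (0.016%) passed, Ifitm1, and 140 did at an unadjusted p under 0.05. Without NO_AG 1 or NO_AG 2, which enter through the shared spread, 20 and 23 genes passed, and 0 passed without AG 1, AG 2 or AG_CPI 2. Lag3, Pdcd1, Tigit, Ccl3, Ccl4 and Prf1 were lower in both AG_CPI mice than in both AG mice, without passing, though not in every segment class, as given further on. The medians of the checkpoint, cytotoxic and mitosis lists were -0.45, -0.29 and 0.20, with no gene called in any of them. Replication and mitosis genes were not called in any comparison of cycling CD8 T cells: 0 of 36 and 0 of 45 passed in AG against NO_AG, with medians of -0.03 and -0.18, and 0 of each passed in the other comparisons.

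**Figure D4:**
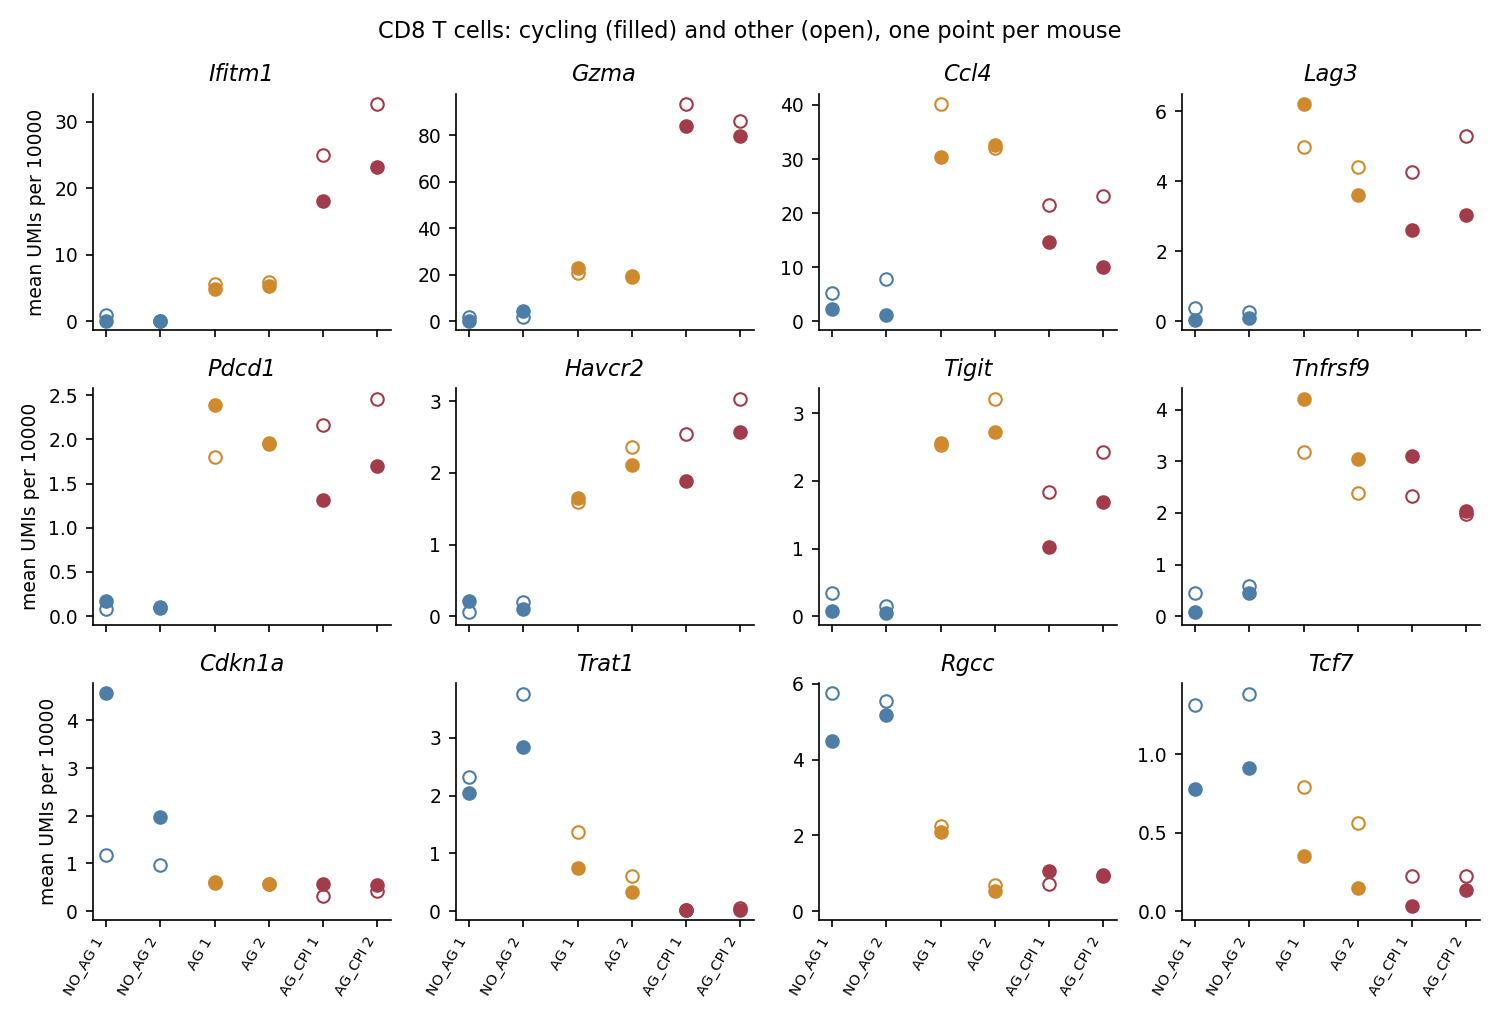
Level of named genes in CD8 T cells, in UMIs per 10000 on the vertical axis, for each mouse, with filled points for cycling and open points for other CD8 T cells, coloured by group. In cycling cells, Lag3, Ccl4 and Ifitm1 are lower in both NO_AG mice than in the other 4, and Cdkn1a is higher, at 4.57 and 1.98.

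Group effects in cycling CD8 T cells were set against those in other CD8 T cells. A test of the difference between the group effects of cycling and other CD8 T cells called 0 of 6239 genes in limma for each of the 3 comparisons, with 494, 65 and 491 genes at an unadjusted p under 0.05, and voom called 0 as well. Without NO_AG 2, which leaves the 16 cells of NO_AG 1, it called 1625, 5 and 1531 genes, and without NO_AG 1 it called 10, 9 and 18. Ifitm1, for example, was 0.98 and 0.09 UMIs per 10000 in other CD8 T cells of NO_AG, 5.62 and 5.88 in the AG mice and 25.1 and 32.7 in the AG_CPI mice. For Cdkn1a, given above, the NO_AG mice lay further above the others in cycling than in other CD8 T cells. A p that misses the threshold does not show that the effects were alike.

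Markers of other cells were summed in the cycling CD8 T cells of each mouse. The 12 keratinocyte markers gave 3.28 to 8.06 UMIs per 10000 and the 10 innate lymphoid markers 1.67 to 3.40. The 13 myeloid markers gave 25.9 in NO_AG 1, the mouse with 16 such cells, and 0.67 to 4.43 elsewhere, with Csf1r at 0 by the rule. The part of this myeloid signal in the NO_AG comparisons was not tested.

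Because Trbv13-3 cells were most of the cycling CD8 T cells of AG and AG_CPI and nearly none in NO_AG, levels were also read by segment. In cycling CD8 T cells with another Trbv segment, Lag3 was 0.06 and 0.10 in NO_AG (11 and 46 cells), 1.69 and 1.08 in AG (16 and 19 cells), and 2.43 and 1.64 in AG_CPI (14 and 30 cells). Trbv13-3 cells had 7.72 and 3.97 in the AG mice and 2.82 and 4.14 in the AG_CPI mice. Among cells with another segment, Lag3 was thus higher in all 4 antigen mice than in NO_AG, which had too few cycling Trbv13-3 cells for that comparison. In each antigen mouse it was higher in Trbv13-3 cells.

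Trat1 went the other way. It was 2.06 and 2.93 in NO_AG 1 and 2, 2.83 and 1.57 in AG 1 and 2, and 0 and 0.08 in AG_CPI 1 and 2 in cells with another segment, and 0.08 and 0.09 in the AG mice and 0 and 0 in the AG_CPI mice in Trbv13-3 cells. In AG, then, the low Trat1 level belonged to the Trbv13-3 cells. Ccl4 in cells with another segment was 2.67 and 0.97 in the NO_AG mice, 1.16 and 5.06 in the AG mice, and 43.3 and 15.6 in the AG_CPI mice, against 35.9 and 38.8 in the AG mice and 7.11 and 9.29 in the AG_CPI mice in Trbv13-3 cells. The order of the segment classes for Ccl4 was opposite in AG and AG_CPI. Ccl3 in cells with another segment was 1.14 and 0.12 in the NO_AG mice, 1.00 and 0.95 in the AG mice, and 18.4 and 2.77 in the AG_CPI mice, against 11 and 10.2 in the Trbv13-3 cells of AG. In the Trbv13-3 cells of AG_CPI 1 and 2 it was 0.96 and 1.57, so the order of the classes was opposite for Ccl3 as well. Pdcd1 in cells with another segment was 0.72 and 0.52 in AG and 2.77 and 3.07 in AG_CPI 1 and 2, the reverse of its order over all cycling CD8 T cells.

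Gzma in cells with another segment was 0 and 4.81 in NO_AG 1 and 2, 0 and 5.26 in AG 1 and 2, and 52.3 and 28.6 in AG_CPI 1 and 2, so that NO_AG and AG overlapped there. In Trbv13-3 cells it was 30.4 and 15.9 in AG and 84.9 and 102 in the AG_CPI mice. In AG cells with no detected segment it was 5.39 and 38.8.

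Fitted again without any cell holding Trbv13-3, a choice made after the data had been seen, limma called 25 of 3518 genes in AG against NO_AG, of which 18 were among the 41, and 43 in AG_CPI against NO_AG, of which 29 were among the 46. Lag3 and Ccl4 rose with log2 fold changes of 2.35 and 3.1, and Cdkn1a fell with -1.41. In AG, Ccl4 in the cells with another segment overlapped NO_AG, as given above, and in the cells with no detected segment it was 51.8 and 25.2 UMIs per 10000 in 6 and 34 cells, against 1.18 and 2.79 in 5 and 5 such cells of NO_AG. Trat1 no longer passed in AG, at -0.38 (limma adjusted p = 0.78), nor did Ass1 and Tesc, and Tcf7 did not pass in AG_CPI against NO_AG. Those cells include CD8 T cells without any detected segment, some of which may carry an unseen one.

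**Figure D5:**
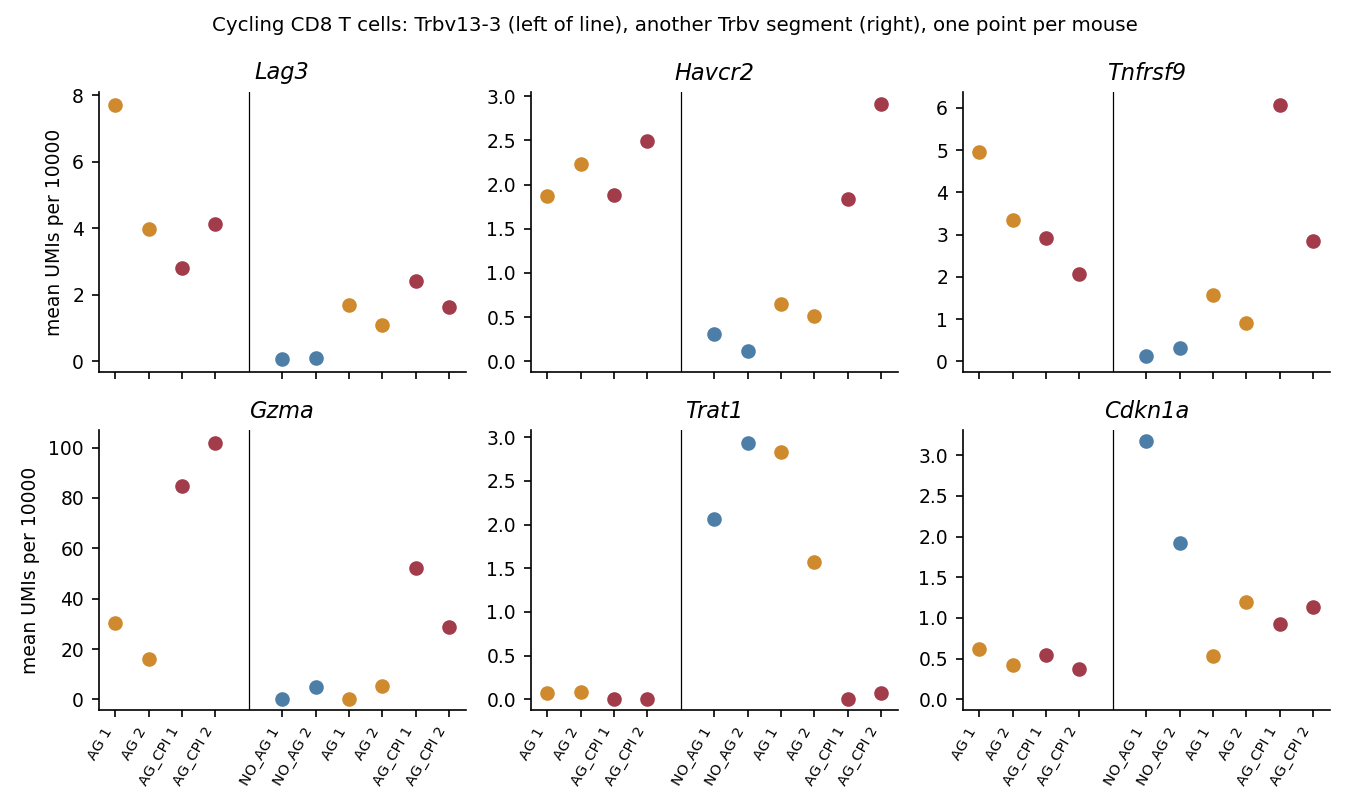
Level of named genes in cycling CD8 T cells, in UMIs per 10000 on the vertical axis, for each mouse, with cells holding Trbv13-3 left of the line and cells with another Trbv segment right of it, coloured by group. Trat1 is at 0.08 and 0.09 in the Trbv13-3 cells of AG and at 2.83 and 1.57 in the AG cells with another segment.

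Over all cycling T cells, without regard to lineage, 102 of 7212 genes rose (1.41%) and 92 fell (1.28%) in AG against NO_AG, together 194 (2.69%), and 120 rose (1.66%) and 121 fell (1.68%) in AG_CPI against NO_AG, together 241 (3.34%). With the deposited scaling alone, 85 rose and 122 fell in AG, and 80 rose and 159 fell in AG_CPI, against NO_AG. Without NO_AG 1 the counts were 47 and 61, without NO_AG 2 they were 124 and 129, AG against NO_AG had 119 without AG 2, and AG_CPI against NO_AG had 95 without AG_CPI 1. Dendritic epidermal T cells were 36.1% and 25.0% of cycling T cells in NO_AG and at most 4.42% in the others, and the part of this make-up in the called genes was not tested. Of the 6 tested innate lymphoid markers, Fcer1g fell in AG against NO_AG and Eomes, a transcription factor of natural killer and effector cells, rose from 0 and 0 UMIs per 10000 to 0.14 and 0.41. Fcer1g, a signalling chain of innate lymphocytes and gamma-delta T cells, was 15.4 and 10.5 UMIs per 10000 in NO_AG 1 and 2, 2.07 and 0.99 in AG 1 and 2, and 0.09 and 0.21 in AG_CPI 1 and 2. Granzyme C gene Gzmc, which has close copies among its neighbouring granzyme genes that could share reads, was 14.2 and 4.30, 0.48 and 0.32, and 1.53 and 0.66. Fcer1g and Gzmc fell in AG against NO_AG with log2 fold changes of -2.64 and -3.13, the Gzmc call being lost with no filter on low values, as did the aryl hydrocarbon receptor gene Ahr with -1.20, which resident epidermal lymphocytes need.

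The 10 tested cytotoxic genes that rose in AG against NO_AG over all cycling T cells included Ifng and Fasl, and Gzmc fell. Checkpoint genes counted 10 higher of 16, regulatory T cell genes 5 higher of 13 (Icos, Il2ra, Tnfrsf4, Tnfrsf9 and Tnfrsf18) and interferon response genes 5 higher of 20 (Gbp7, Ifi27l2a, Irf7, Isg15 and Rtp4), with none lower. Replication genes counted 0 of 37, and of 45 mitosis genes Cenpf and Prc1 fell. The AG_CPI against NO_AG comparison had fewer of these, with 7 of 16 checkpoint genes and 2 of 13 regulatory T cell genes higher. Its interferon response genes counted 1 higher and 1 lower of 20. The summed level of the 10 innate lymphoid markers was 19.0 and 12.7 in the NO_AG mice, 4.83 and 3.21 in the AG mice, and 1.97 and 1.83 in the AG_CPI mice. Most of the NO_AG sums was Fcer1g, given above, so they describe mainly that gene. Of the 6 tested markers, 3 were positive in AG against NO_AG. The 13 myeloid markers summed to 11.9 in NO_AG 1 and to 0.77 to 4.92 in the other 5 mice, and their part in the NO_AG comparisons was not tested. Keratinocyte markers summed to 3.18 to 11.8, and none of 11 was called in AG against NO_AG. In AG_CPI against NO_AG, 2 of the 11 keratinocyte markers fell, the keratin genes Krt15 and Krt17 with log2 fold changes of -0.57 and -1.17, 1 of the 11 was positive, and Il13, a type 2 cytokine gene in the innate lymphoid list, fell with -0.93. These markers moved with the 241 genes called there, and their part in those calls was not tested. Fibroblast and endothelial markers summed to 0.04 to 1.80 with Cdh5 and Kdr at 0 in all mice, and B cell markers to 0.20 to 1.13 with Cd79a, Ms4a1 and Jchain at 0.

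Between AG_CPI and AG, 5 genes of all cycling T cells passed (0.0693%), 2 higher (0.0277%) and 3 lower (0.0416%). Ifitm1 rose with a log2 fold change of 1.96, and so did Itga1, a collagen-binding integrin of resident T cells, with 1.02 (limma adjusted p = 0.031). Ccl3 and Fcer1g fell with -1.65 and -1.62. Without AG 1, AG 2 and AG_CPI 1, this comparison called 11, 25 and 3 genes, and the Itga1 call was lost without AG 2, AG_CPI 1 or AG_CPI 2, with a pseudocount of 1 and with no filter. The Fcer1g call was lost without AG_CPI 1, with doublets removed, with voom, with a pseudocount of 1 and with no filter on low values. The Ccl3 call was lost with either cycle gene and with no filter. With a receptor constant transcript required of each cell as well, a choice made after the data had been seen, 317, 14 and 381 genes passed in AG against NO_AG, AG_CPI against AG and AG_CPI against NO_AG, with 192, 5 and 237 of them among the original calls.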

How the data were processed

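Single-cell RNA was measured in 6 libraries of 1 mouse each. The deposited unit is log10(1 + x), where x is a gene's UMIs scaled to 10000 per cell. It was read from the values: 100% of them came within 0.05 of a whole UMI with log10 and 66.9% to 69.8% with the natural log. Cell Ranger 3.1 and mm10 are named in the submitters' processing notes, and cell and gene filters are not given in the sources used here. The tables hold 16158 genes. Cells had 1501 to 14995 UMIs, library medians were 2527 to 4744, and library totals were 5903724 to 24656382. No barcode was shared between cycling T cells of different libraries. Intervals and limits from 3 counts cover counting error only.

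The members and gene lists were chosen with earlier results of these data known. For each mouse, linear values of each class (at least 10 cells) were averaged, scaled by an unweighted trimmed mean of M-values (TMM, trims 0.3 and 0.05) and converted to log2 after adding 0.5. Genes needed 10 UMIs in 2 libraries. All 6 mice entered 1 limma-trend fit (limma 3.58.1, R 4.3.3) with group as the only term. That fit was also run on simulated counts, which had the same added spread for every gene and mouse and no averaging over cells. Nothing is concluded from that run. The negative binomial fit was planned for the case of deposited raw counts and was not run, since the deposited unit is log10. It could have been run on the recovered UMIs. Limma voom on those UMIs took its place, a choice made after the data had been seen. Other steps used Python 3.11.15 with numpy 2.4.6, scipy 1.17.1, pandas 2.3.3, Biopython 1.88 and, for doublet scores, scanpy 1.11.5. Shares were thinned by their expected value at 1500 UMIs. Whether mice of 1 group came from separate litters is not stated. The limma p-values rest on the spread between mice of the same group, pooled over the 3 groups and moderated across genes. The permutation p-values rest on rearranged mouse values or on flipped signs of differences within mice.

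Named genes are up to 10 that rose and 10 that fell per test, with the smallest p among called genes whose groups do not overlap, leaving out ribosomal protein, mitochondrial, receptor segment and sex-linked genes (Xist, its neighbours and Y-linked genes), plus members of the fixed lists. Mice were not paired by replicate number, since correlations of same-numbered deviations were -0.077 to 0.11. These correlations cannot show whether same-numbered mice shared a run, and the labels name no batch. Alternatives varied the pseudocount, scaling, filter, averaging, block, doublets, cell quality, cycling and T cell criteria, and each mouse in turn.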

Additional observations from a re-analysis of the deposited data

Results flagged for a closer look

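CD8 T cells had a higher cycling share than conventional CD4 T cells in both AG mice, by a mean of 5.51 percentage points, and a lower one in both NO_AG mice, with a mean difference of -9.07. In both AG_CPI mice it was also lower, with a mean difference of -4.86, against 5.51 in AG. The differences between groups were not tested, and the conventional CD4 shares rest on 3 to 13 cycling cells per mouse.

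Ddx3y, a Y-linked gene that no comparison used, was detected in 6 of the 138 cycling CD8 T cells of AG_CPI 1 and in none of the cycling CD8 T cells of the other 5 mice. Of these 6 cells, 2 held Trbv13-3 and 4 held another Trbv segment. In the same mouse Xist was found in 78 of 88 cycling Trbv13-3 cells (88.6%) and in 3 of 14 cycling CD8 T cells with another segment (21.4%).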

How the results depend on the processing

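Of 224 alternatives for shares and pairs of lineages, 212 kept the direction and 12 reversed it. No p there was under 0.25, so no stability against a threshold is read from them. Of 153 alternatives for counts of called genes, 97 stayed within 1.5 times the count reported. Of 1376 for named genes, 1257 kept direction and call, 119 lost the call and 0 reversed. With cells thinned to 1500 UMIs, AG minus NO_AG became -0.93 points for all T cells and -1.16 for CD8, and AG_CPI minus AG became 0.67 for all. With at least 2 UMIs of both cycle genes they were -0.69 and -0.49 for AG minus NO_AG, and CD8 minus conventional CD4 was 0.19. Without the keratin limit, added after seeing the data, AG minus NO_AG was -2.33. Leaving out 1 mouse gave -4.10 to 6.73 (all T, AG minus NO_AG), -6.39 to 4.44 (all T, AG_CPI minus AG), -4.26 to 9.16 (CD8, AG minus NO_AG) and -11.5 to 1.87 (CD8, AG_CPI minus AG). Called genes are given for AG against NO_AG, AG_CPI against AG and AG_CPI against NO_AG in turn. In all cycling T cells, no filter on low values called 33, 1 and 78, either cycle gene 367, 18 and 593, and the receptor requirement, added after seeing the data, 317, 14 and 381. Summed UMIs called 337 and 364 in the comparisons with NO_AG, and a pseudocount of 1 called 2 in AG_CPI against AG. Leaving out 1 mouse gave 47 to 220, 3 to 25 and 61 to 338. In cycling CD8 T cells, no filter called 15, 0 and 11, either cycle gene 71, 3 and 100, and cells without Trbv13-3 25, 3 and 43. AG_CPI against AG had 2 with a pseudocount of 1, 3 with summed UMIs and 8 with voom, added after seeing the data. In AG against NO_AG voom called 26 higher and 15 lower. Leaving out 1 mouse gave 15 to 1220, 0 to 23 and 12 to 1104, and 0 to 1625, 0 to 9 and 0 to 1531 for the difference between cycling and other CD8 T cells. The replicate block, which pairs only numbers, called 11 (all T) and 3 (CD8) in AG_CPI against AG and 53 and 59 in the CD8 comparisons with NO_AG. The planned edgeR alternative was not run, and voom took its place. Except where stated, the cause was not tested. The number of cells limits the regulatory and conventional CD4 shares and NO_AG 1, with 16 cycling CD8 T cells.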
